A study of Xenopus laevis with 72 samples.

Results

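cyp26c1.L and cyp26c1.S are the 2 homoeologs of cyp26c1 in the frog Xenopus laevis, taken by their gene symbols from a panel of 23 target genes that high-throughput real-time PCR measured beside the reference gene gapdh. Both were measured in all 72 samples, so each homoeolog has 72 values and no value is missing. The samples were pools of 5 to 10 wildtype whole embryos from 6 clutches, labelled G to L, and each clutch came from the eggs of 1 female. Within a clutch, embryos were left as controls, treated with 10 nM retinoic acid (RA) or treated with 50 uM of the retinaldehyde dehydrogenase inhibitor DEAB (4-diethylaminobenzaldehyde) for a 2 h pulse from late blastula to early gastrula, then washed. They were collected at 0, 1.5, 3 and 4.5 h after the pulse ended, which gives 12 groups of 6 samples, 1 from each clutch. The comparisons asked how the expression of both genes followed a transient rise or fall of RA. Pools of whole embryos do not tell more RNA per cell from more cells with the RNA.

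CYP26 enzymes are cytochrome P450 proteins that hydroxylate RA to metabolites that are cleared from the cell, and they thereby oppose the enzymes that make RA from retinaldehyde. In mouse and zebrafish embryos the CYP26 family is known for limiting where RA reaches, and cyp26a1 is a well known target of RA signalling itself. Xenopus laevis carries 2 subgenomes from an ancient cross, and the copies of a gene on them, L and S, are called homoeologs. In the RefSeq annotation cyp26c1.L (gene ID 108696124) lies on chromosome 7L between cyp26a1.L and exoc6.L, and cyp26c1.S (gene ID 735026) lies on chromosome 7S beside cyp26a1.S. Each homoeolog therefore neighbours the cyp26a1 copy of its own subgenome.

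Values are log2 levels relative to gapdh, centred by the authors so that 0 is a gene's own median over the 72 samples. A difference of 1 is a doubling if each cycle doubles the product, which was not checked. A level cannot be set against the level of another gene. cyp26c1.L ranged from -6.78 to 4.76 and cyp26c1.S from -4.26 to 4.35. The threshold cycle (Ct), in which a lower number means more template, was 11.4 to 22.83 with a median of 17.49 for cyp26c1.L and 13.68 to 22.18 with a median of 18.67 for cyp26c1.S, within the panel's 10.04 to 27.41.

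In control embryos both homoeologs rose strongly from the early gastrula onwards. cyp26c1.L had its lowest, median and highest control values at -4.26, -4.01 and -3.44 when the pulse ended (0 h), at -3.51, -2.52 and -1.39 after 1.5 h, at -0.96, 0.19 and 2.64 after 3 h, and at 1.14, 2.81 and 3.72 after 4.5 h. The corresponding control values of cyp26c1.S went from -3.51, -3.01 and -1.97 at 0 h through -3.20, -1.83 and -0.58 (1.5 h) and -0.14, 0.47 and 2.34 (3 h) to 1.46, 3.18 and 4.14 (4.5 h). For neither gene did the 0 h and 3 h controls overlap, nor the 1.5 h and 4.5 h controls, whereas clutch H at 3 h stood as high as some clutches at 4.5 h.

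From 0 to 4.5 h the control level of cyp26c1.L rose by 6.49 (SE 0.48, adjusted p = 6.7e-19), an 89.9-fold change, and that of cyp26c1.S rose by 5.80 (SE 0.46, adjusted p = 1.3e-17), a 55.7-fold change. Both rose in 6 of 6 clutches, by 4.64 to 7.98 for cyp26c1.L and by 4.49 to 7.65 for cyp26c1.S. Adjusted p-values here and below are from limma with the clutch as a block and Benjamini-Hochberg adjustment over the 23 target genes. Between 0 and 1.5 h cyp26c1.L rose by 1.43 (adjusted p = 0.0080), while cyp26c1.S was higher by 0.96, in 4 of 6 clutches, and missed the threshold (adjusted p = 0.073), which it passed without clutch I (1.23, adjusted p = 0.038). Of the 23 target genes, 47.8% rose in that step. Between 1.5 and 3 h the rises were 2.88 for cyp26c1.L (adjusted p = 6.7e-07) and 2.59 for cyp26c1.S (adjusted p = 2.2e-06), in a step in which 73.9% of the target genes rose. In the last step, in which 34.8% of the target genes rose, cyp26c1.L rose by 2.18 (adjusted p = 1.9e-04) and cyp26c1.S by 2.26 (adjusted p = 9.1e-05). They were the 2 genes that rose in the last step out of the panel's 7 for RA breakdown and retinaldehyde reduction.

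The size of this time course depended on the reference. The Ct of gapdh was 1.30 cycles higher at 4.5 h than at 0 h in the controls (5 of 6 clutches, p = 0.0625 in an exact, two-sided test that flips the signs of the clutch differences), and without any reference the rise was 5.20 for cyp26c1.L and 4.51 for cyp26c1.S. Against the mean of the 22 target genes without missing values, most of which rose too, it was 3.10 and 2.41 (adjusted p = 2.2e-12 and 6.2e-09). On that scale the first step of cyp26c1.L was 0.33 (adjusted p = 0.48), and that of cyp26c1.S was -0.14 (adjusted p = 0.84), so the first step has no settled direction for cyp26c1.S and no settled call for cyp26c1.L.

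**Figure D1:**
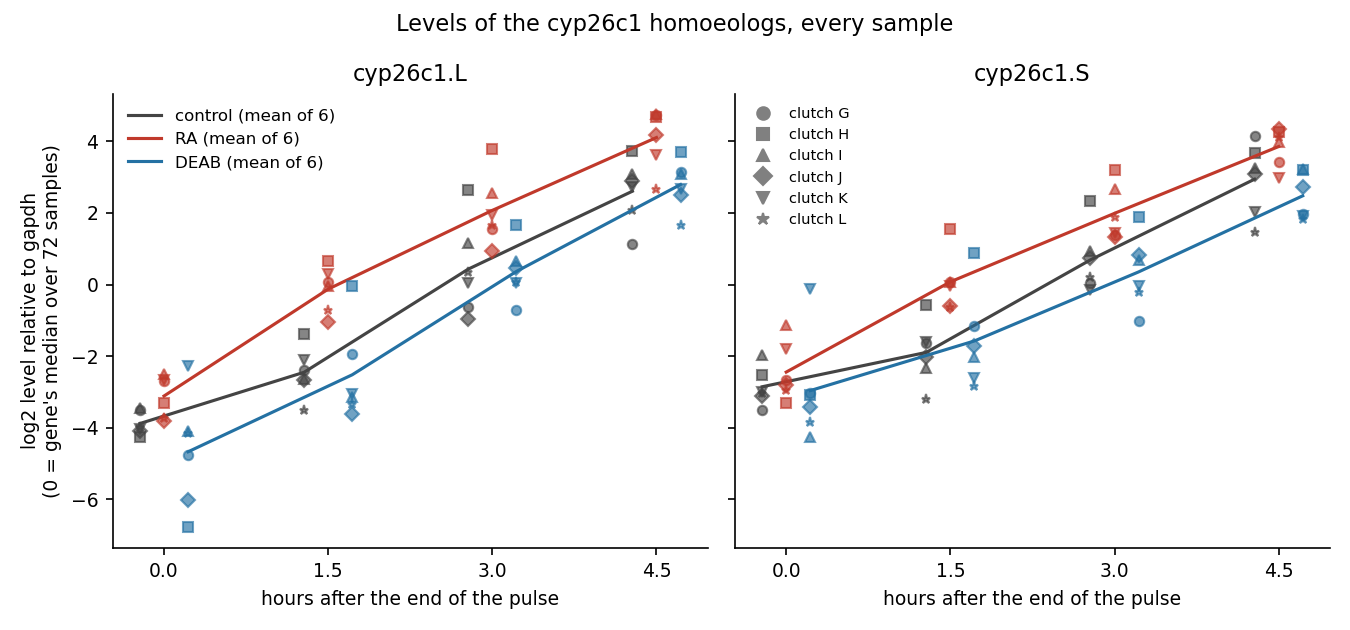
Level of cyp26c1.L (left) and cyp26c1.S (right) in every sample, as log2 relative to gapdh (0 is the gene's median over 72 samples), against hours after the end of the pulse. Symbols are clutches and lines join the means of 6 clutches per treatment. The means rise at every step in all 3 treatments, and the RA mean of either gene lies above the control mean at each of the 4 times on this scale (at 0 h not for cyp26c1.S against the panel mean), farthest at 1.5 h (2.32 for cyp26c1.L and 1.97 for cyp26c1.S).

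After the RA pulse both homoeologs were higher than in the controls, with the largest mean difference 1.5 h after the RA had been washed out. At 1.5 h the RA samples of cyp26c1.L lay at -1.06, 0.03 and 0.66 (lowest, median and highest), above all 6 controls. For cyp26c1.S they lay at -0.62, 0.02 and 1.56, and the lowest RA sample fell just under the highest control of -0.58. Clutch by clutch, in the order G to L, cyp26c1.L was higher with RA by 2.48, 2.05, 2.61, 1.61, 2.40 and 2.79. In the same order, cyp26c1.S was higher by 1.72, 2.14, 2.42, 1.41, 1.56 and 2.58. All 12 of these differences were above 0. The mean difference was 2.32 for cyp26c1.L (SE 0.48, 5.00-fold, adjusted p = 3.8e-05) and 1.97 for cyp26c1.S (SE 0.46, 3.92-fold, adjusted p = 2.6e-04), in a comparison in which 39.1% of the target genes were higher with RA. Among the 23 genes the difference of cyp26c1.L ranked 3 and that of cyp26c1.S ranked 6.

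Immediately after the pulse, at 0 h, the differences were small. The RA samples of cyp26c1.L lay at -3.81, -3.01 and -2.49 and those of cyp26c1.S at -3.30, -2.74 and -1.14, and both overlapped the controls. cyp26c1.L differed by 0.77 (95% interval -0.18 to 1.72, adjusted p = 0.26). It was higher in 6 of 6 clutches, by 0.25 to 1.39. The exact sign-flip test over clutches gave p = 0.031, unadjusted over genes and the smallest that 6 clutches can give. In the fit on these 12 samples alone the difference passed (adjusted p = 0.019). cyp26c1.S differed by 0.41 (95% interval -0.51 to 1.33, adjusted p = 0.61), higher in 5 of 6 clutches. Without any reference it differed by 0.60, also higher in 5 of 6. Against the panel mean it differed by -0.21 (adjusted p = 0.71). The panel mean lowers the cyp26c1.L difference by the same amount. That mean includes both homoeologs and genes called higher with RA at 0 h. It therefore takes up part of the RA response itself and cannot settle the direction. At this time 26.1% of the target genes were called higher with RA, among them both cyp26a1 homoeologs and dhrs3.L, the gene of a retinaldehyde reductase that lowers the supply of substrate for RA synthesis. One call at 0 h was that of hoxd3.L, which was measured in 3 RA and 2 control samples with 0 clutches in common.

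At 3 h cyp26c1.L was still higher with RA by 1.64 (SE 0.48, 3.12-fold, adjusted p = 0.012) and cyp26c1.S by 1.30 (SE 0.46, 2.46-fold, adjusted p = 0.037), each in 6 of 6 clutches. The RA samples lay at 0.95, 1.80 and 3.78 for cyp26c1.L and at 1.32, 1.67 and 3.21 for cyp26c1.S, and overlapped the controls of other clutches. Only 17.4% of the target genes were called higher at 3 h, and cyp26c1.L had the largest difference of the 23. The call for cyp26c1.L was lost without clutch J (1.59, adjusted p = 0.083), and that for cyp26c1.S without any one of clutches G, I, J and L (1.21 to 1.44, adjusted p from 0.073 to 0.15).

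At 4.5 h none of the 23 genes passed (0%), with 3 genes at an unadjusted limma p under 0.05 and 2 of the 22 genes with full data under 0.05 in the exact sign-flip test. The RA samples of cyp26c1.L lay at 2.66, 4.44 and 4.76 and those of cyp26c1.S at 2.99, 4.05 and 4.35. cyp26c1.L was 1.50 higher (SE 0.48, adjusted p = 0.058), in 6 of 6 clutches, and cyp26c1.S was 0.91 higher (SE 0.46, adjusted p = 0.26), in 5 of 6. Without any reference cyp26c1.L was 1.36 higher, in 5 of 6 clutches, and the exact test did not pass (p = 0.094). The clutch G control lay at opposite ends of the range in the homoeologs: cyp26c1.L had the lowest control level at that time (1.14) and cyp26c1.S the highest (4.14). In clutch G the RA difference was 3.59 for cyp26c1.L and -0.72 for cyp26c1.S. The cyp26c1.L difference passed without clutch H (1.61, adjusted p = 0.0049) or clutch K (1.62, adjusted p = 0.039). Without clutch G the mean differences were 1.08 (0.59 to 1.66, adjusted p = 0.46) and 1.24 (0.60 to 2.66, adjusted p = 0.46), so the order of the homoeologs at 4.5 h turned with it. Without clutch L, which had the highest difference, that of cyp26c1.S was 0.56 (adjusted p = 0.68).

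**Figure D2:**
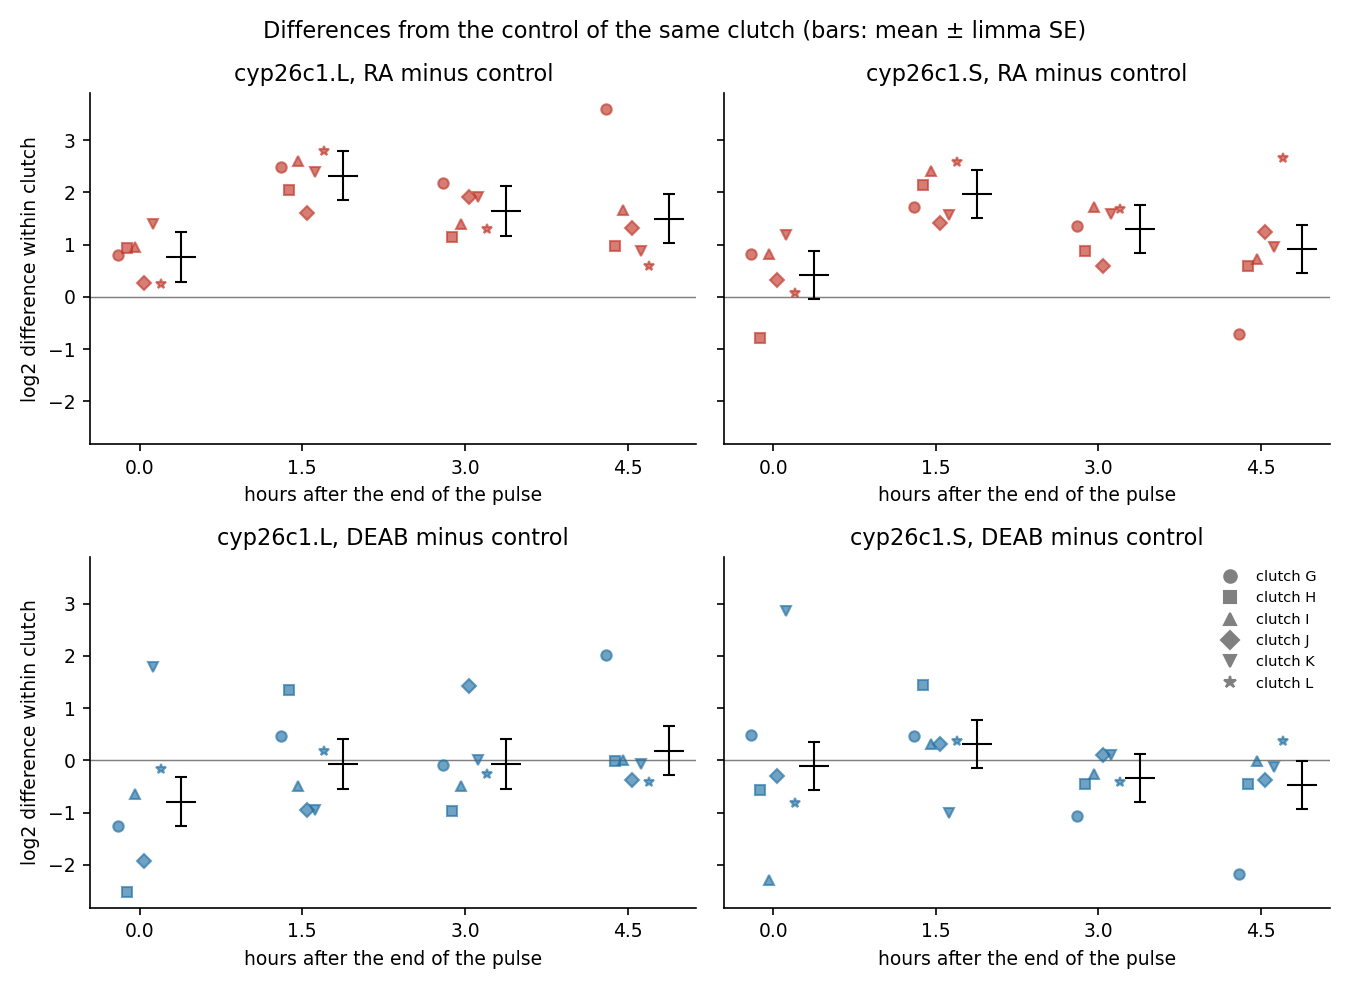
Log2 difference of each treated sample from the control of its own clutch, for cyp26c1.L (left) and cyp26c1.S (right), after RA (top) and DEAB (bottom), against hours after the end of the pulse. Symbols are clutches and the bars are the mean ± SE of the limma fit (n = 6 clutches). All 12 RA differences at 1.5 h lie above 0, from 1.41 to 2.79, whereas the DEAB differences scatter on both sides of 0 at every time.

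Whether the RA difference itself changed over time was tested as a change of differences. From 0 to 1.5 h it grew by 1.56 in cyp26c1.L (95% interval 0.21 to 2.90) and by 1.56 in cyp26c1.S (0.26 to 2.86), upward in 6 of 6 clutches for each gene, but neither passed after adjustment (adjusted p = 0.19 for both, with 4.35% of genes called, that is hoxd3.L alone, with 2 clutches measured in both groups at 1.5 h). With a block for each clutch at each time, both passed (adjusted p = 0.028). From 0 to 4.5 h the change was 0.73 for cyp26c1.L (adjusted p = 0.50) and 0.50 for cyp26c1.S (adjusted p = 0.72), in a comparison with 8.7% of genes called, dhrs3.L and hoxd3.L. With 1 clutch left out it ranged from 0.32 (without G) to 0.98 (without K) for cyp26c1.L and from 0.09 (without L) to 0.91 (without G) for cyp26c1.S. The RA difference was largest at 1.5 h in 4 of 6 clutches for each homoeolog and at 0 h in none. Neither later step passed. From 1.5 to 3 h the RA difference changed by -0.68 in cyp26c1.L and -0.67 in cyp26c1.S (adjusted p = 0.85 for both). From 3 to 4.5 h it changed by -0.14 and -0.39 (adjusted p = 0.99 for both). The maximum at 1.5 h was thus not separated from the value at 3 h. An F test of the 3 later differences against 0 h did not pass either. Its adjusted p was 0.36 for cyp26c1.L and 0.33 for cyp26c1.S.

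The levels in RA-treated embryos were also set against the next control time, 1.5 h later. cyp26c1.L with RA was 0.66 lower than the control of 1.5 h later at 0 h, 0.56 lower at 1.5 h and 0.54 lower at 3 h. For cyp26c1.S these differences were -0.55, -0.61 and -0.96. None of these 6 differences passed (adjusted p from 0.11 to 0.42), in comparisons in which 39.1%, 52.2% and 21.7% of the target genes differed. The 95% intervals were -1.61 to 0.29, -1.51 to 0.39 and -1.49 to 0.42 for cyp26c1.L and -1.47 to 0.37, -1.53 to 0.31 and -1.88 to -0.03 for cyp26c1.S, the last of which, unadjusted, lies below 0. With 1 clutch left out the 3 values ranged from -0.83 to -0.41, -0.81 to -0.27 and -0.73 to -0.26 for cyp26c1.L, smallest without H, H and J. For cyp26c1.S they ranged from -0.90 to -0.12, -0.76 to -0.47 and -1.23 to -0.60, smallest without H, J and G. Without a reference the first of these values was 0.01 for cyp26c1.L and 0.12 for cyp26c1.S, so its direction was not settled. In the RA embryos cyp26c1.L rose by 2.99, 2.20 and 2.04 over the 3 steps and cyp26c1.S by 2.52, 1.91 and 1.87, and each of these rises passed (adjusted p of 0.0011 or less), as did 69.6%, 43.5% and 47.8% of the target genes. The first RA step of cyp26c1.L had the highest mean of the 23 genes. With RA, too, the Ct of gapdh was higher at 4.5 h than at 0 h, by 1.625 cycles (5 of 6 clutches, exact p = 0.0625). These RA rises are therefore smaller without a reference.

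The DEAB pulse gave no called difference from the controls in either homoeolog at any time, nor in any other target gene (0% at each of the 4 times). At an unadjusted limma p under 0.05 there were 2 genes at 0 h and 0 genes at the later times, and in the exact test 2 genes at 3 h and 0 at the others. At 0 h the DEAB samples of cyp26c1.L lay at -6.78, -4.45 and -2.27, a wider range than in any other group, and 0.79 under the controls on average (95% interval -1.74 to 0.16, adjusted p = 0.65). In clutches G to L the difference was -1.25, -2.52, -0.65, -1.93, 1.78 and -0.17, that is, lower in 5 clutches and higher in clutch K. cyp26c1.S differed at 0 h by -0.11 (95% interval -1.03 to 0.81), with clutch K again far above the others, at 2.86 over its control. Without clutch K the means were -1.30 for cyp26c1.L (lower in all 5 clutches, adjusted p = 0.16) and -0.70 for cyp26c1.S (adjusted p = 0.54). Without clutch H that of cyp26c1.L was -0.44 (adjusted p = 0.79), and without clutch I that of cyp26c1.S was 0.33 (adjusted p = 0.73). In that DEAB sample of clutch K the median deviation of the other target genes with full data from their fitted values was 0.72, against 2.27 for cyp26c1.L and 2.97 for cyp26c1.S.

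At the later times the DEAB differences were -0.07, -0.07 and 0.19 for cyp26c1.L and 0.32, -0.34 and -0.47 for cyp26c1.S. Their 95% intervals were -1.02 to 0.88, -1.02 to 0.89 and -0.76 to 1.14 for cyp26c1.L, and -0.60 to 1.24, -1.26 to 0.58 and -1.39 to 0.46 for cyp26c1.S. The values at 4.5 h again included the clutch G control, where the DEAB difference was 2.01 for cyp26c1.L and -2.17 for cyp26c1.S. Without clutch G they were -0.18 and -0.12.

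RA and DEAB samples, which share their controls in the comparisons above, were also compared directly. cyp26c1.L was higher with RA than with DEAB by 1.56 at 0 h (adjusted p = 0.0051), 2.39 at 1.5 h (adjusted p = 2.3e-05) and 1.71 at 3 h (adjusted p = 0.0043). cyp26c1.S differed by 0.52 at 0 h (adjusted p = 0.44, and -0.20 against the panel mean) and was higher by 1.65 at 1.5 h (adjusted p = 0.0026, and 0.72 with adjusted p = 0.061 against the panel mean) and 1.64 at 3 h (adjusted p = 0.0043). The shares of target genes called higher were 39.1%, 43.5% and 30.4%. At 0 h the value of cyp26c1.L was above 0 in 5 of 6 clutches, with -0.39 in clutch K, and did not pass in the exact test (p = 0.0625). At 4.5 h cyp26c1.L was higher by 1.31 and cyp26c1.S by 1.38, each in 6 of 6 clutches, from 0.75 to 2.29 (adjusted p = 0.059 for both, exact p = 0.031 for both). Both passed without clutch H (1.38 and 1.44, adjusted p = 0.028 for both), and cyp26c1.S also without clutch K (1.44, adjusted p = 0.038). No gene passed in limma at that time (0%), with 4 genes under 0.05 unadjusted and 7 of 22 under 0.05 in the exact test.

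Ordered by mean level, the 12 groups of cyp26c1.L ran from DEAB at 0 h (-4.67) over control (-3.88) and RA (-3.12) at 0 h, DEAB (-2.52), control (-2.45) and RA (-0.13) at 1.5 h, DEAB (0.37), control (0.43) and RA (2.07) at 3 h, and control (2.61), DEAB (2.79) and RA (4.11) at 4.5 h. Groups of 1 time thus stood together and RA closed each set of 3. The neighbours in this order that differed in the same direction in 6 of 6 clutches (exact p = 0.031) were RA and the group just under it at each of the 4 times, by 0.77, 2.32, 1.64 and 1.31. The other 7 neighbouring steps did not pass (exact p from 0.19 to 1). In cyp26c1.S the times stood together in the same way, and the neighbours that passed were RA and the group under it at 1.5 h (1.65) and 3 h (1.30). The other 9 did not (exact p from 0.094 to 0.84). The order was taken from the same values that these tests used, so the steps add no support to the comparisons above.

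The homoeologs were then set against each other within each sample, where gapdh cancels. Because each gene is centred on its own median, only changes of the L minus S value can be read, not its size. Whether each primer pair reads only its own homoeolog, and whether both pairs amplify equally well, was not checked. In the controls it was -1.03 ± 0.60, -0.56 ± 0.22, -0.26 ± 0.79 and -0.34 ± 1.36 at the 4 times in turn (SD, n = 6). With RA it was -0.67 ± 0.54, -0.20 ± 0.42, 0.08 ± 0.39 and 0.25 ± 0.97, and with DEAB -1.71 ± 1.44, -0.95 ± 0.54, 0.01 ± 0.27 and 0.32 ± 0.58. In all 3 treatments the mean was lower at 0 h than at 3 and 4.5 h.

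No difference between the RA responses of the homoeologs passed the test at any of the 4 times. The L minus S value was higher with RA by 0.36, 0.35, 0.34 and 0.59 at the 4 times, and none passed in limma over the 5 duplicated gene pairs of the panel (adjusted p from 0.67 to 0.84, 95% intervals from -0.54 to 1.47). An L minus S difference anywhere from -0.29 to 1.22 therefore lies within the intervals of all 4 times. The limit of 1.47 is that of 4.5 h, and the limit of -0.54 is that of 3 h. The value at 0 h was set by clutch H (1.72, against -0.05 to 0.21 in the others) and was 0.09 without it. The value at 4.5 h was set by clutch G (4.31) and was -0.16 without it. The DEAB differences of L minus S were -0.68, -0.39, 0.27 and 0.65 (adjusted p from 0.32 to 0.93), and the last was -0.05 without clutch G.

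Over the whole course cyp26c1.L rose more than cyp26c1.S in DEAB embryos, while the same direction in RA and control embryos missed the threshold. From 0 to 4.5 h the L minus S value increased by 2.03 in DEAB embryos (SE 0.44, adjusted p = 1.1e-04), by 0.92 in RA embryos (adjusted p = 0.052) and by 0.69 in controls (adjusted p = 0.15), each in 5 of 6 clutches. In each of these comparisons 60% of the 5 pairs were called, so a shift of a pair over this time was common in the panel. The DEAB value did not pass in the exact test (p = 0.094). Without clutch G the control value was 1.43 (5 of 5 clutches, 0.74 to 1.79, adjusted p = 0.0023), and the RA value was 1.02 without clutch H (adjusted p = 0.044) and 1.24 without clutch L (adjusted p = 0.015). The difference between the DEAB and control changes was 1.34 (adjusted p = 0.18, 4 of 6 clutches). It passed without clutch I (1.93, adjusted p = 0.038) or clutch L (1.89, adjusted p = 0.036), and was 0.42 without clutch G (adjusted p = 0.94).

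**Figure D3:**
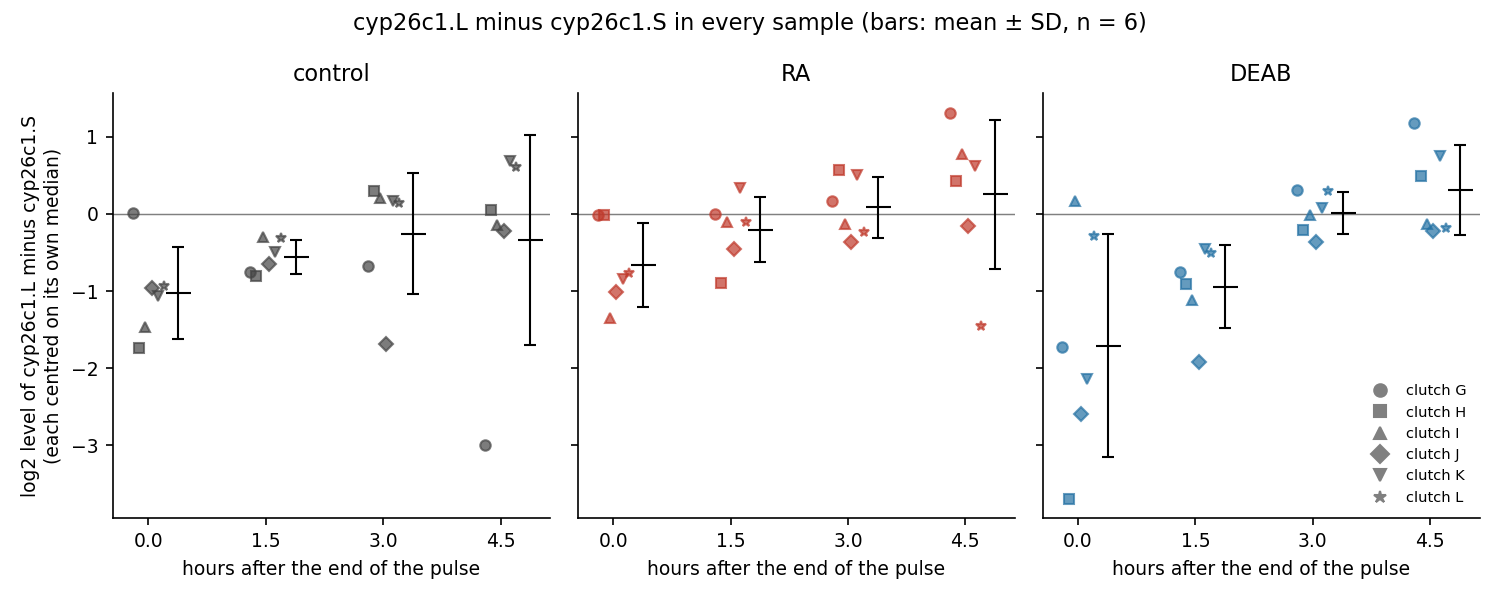
Log2 level of cyp26c1.L minus that of cyp26c1.S in every sample, by treatment, against hours after the end of the pulse. Symbols are clutches and bars are the mean ± SD (n = 6). The clutch G control at 4.5 h lies at -3.00, while the other 5 controls of that time lie between -0.22 and 0.69.

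The mean level of the 2 genes relative to gapdh varied between clutches, which was not tested. Averaged over the 12 groups, cyp26c1.L ranged from -0.94 in clutch J and -0.91 in clutch L to 0.42 in clutch H, and cyp26c1.S from -0.60 in clutch L to 0.96 in clutch H. Clutch H was the highest for both genes, which share the gapdh reference. After removal of group and clutch means, the spread left in single samples was 0.84 for cyp26c1.L and 0.81 for cyp26c1.S (SD), and the deviations of the homoeologs correlated with r = 0.57 across the 72 samples, which share the gapdh reference and the RNA. Without the reference r was 0.67. The r of 0.57 ranked 3 among the 21 other genes for cyp26c1.L and 6 for cyp26c1.S, so it was not particular to the pair.

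By the correlation of levels over the 72 samples, after centring on clutches, the 3 genes of 21 others most like cyp26c1.L were hoxb1.S (r = 0.97), cyp26c1.S (r = 0.96) and hoxb4.S (r = 0.94). Those most like cyp26c1.S were cyp26c1.L (r = 0.96), hoxb1.S (r = 0.96) and hoxb4.S (r = 0.95). hoxb1 and hoxb4 encode homeodomain factors of the anterior hox groups that pattern the hindbrain along the body axis. These points share their samples, the gapdh reference and the common rise over time. With group and clutch means removed r was 0.64 and 0.48 for cyp26c1.L with hoxb1.S and hoxb4.S, and 0.63 and 0.59 for cyp26c1.S.

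At 0 h the RA response of both cyp26c1 homoeologs was smaller than that of dhrs3.L. The gap narrowed from 0 to 1.5 h, a change for which fits with 1 clutch left out are not given here. The time courses of cyp26c1 were set beside those of the cyp26a1 homoeologs as well. cyp26a1.L, whose product like that of cyp26c1 degrades RA, was higher with RA by 1.66, 2.51, 0.75 and 0.51 at 0, 1.5, 3 and 4.5 h. cyp26a1.S was higher by 2.10, 2.18, 0.72 and 0.66, and dhrs3.L by 2.68, 2.27, 0.93 and 0.35. These 3 genes were thus called at 0 h and 1.5 h, and only dhrs3.L at 3 h, while cyp26c1.L and cyp26c1.S were called at 1.5 h and 3 h. Such calls do not compare the genes with each other. The difference was largest at 0 h in 3 of 6 clutches for either cyp26a1 homoeolog and in 4 of 6 for dhrs3.L, against 0 of 6 for either cyp26c1 homoeolog. The F test of the 3 later differences against 0 h passed for dhrs3.L (adjusted p = 1.0e-07) and for either cyp26a1 homoeolog (0.033 each). It did not pass for either cyp26c1 homoeolog.

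**Figure D4:**
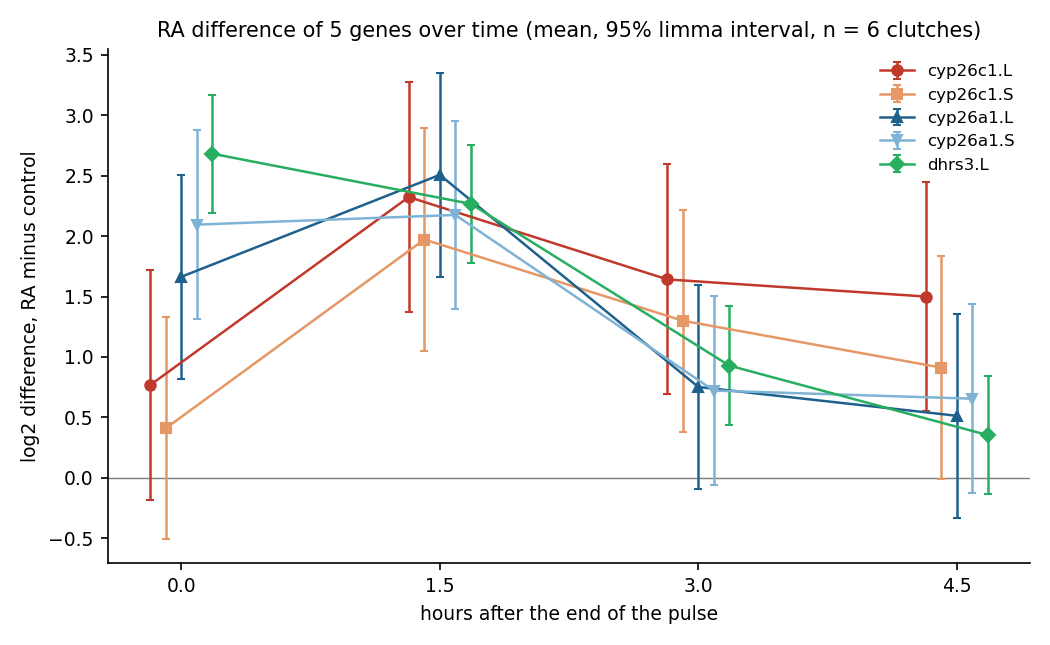
Mean log2 difference between RA and control embryos for 5 genes, against hours after the end of the pulse, with 95% intervals of the limma fit (n = 6 clutches). At 0 h the cyp26c1 means (0.77 and 0.41) lie under those of cyp26a1.L, cyp26a1.S and dhrs3.L (1.66, 2.10 and 2.68), and at 3 and 4.5 h they lie above them. Of the gaps of cyp26c1.L to these genes at 3 and 4.5 h, only that to dhrs3.L at 4.5 h passed. That call was lost without any one of clutches G, I, J and K.

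The difference between genes was tested on the member minus the other gene within each sample, with adjustment over the 22 other target genes. These 22 tests share the values of the member. At 0 h the RA response of cyp26c1.L differed from that of dhrs3.L by -1.91 and that of cyp26c1.S by -2.27 (SE 0.48 and 0.47, adjusted p = 0.0012 and 7.0e-05), each below 0 in 6 of 6 clutches. Against cyp26a1.S the gap at 0 h was -1.33 for cyp26c1.L (adjusted p = 0.033) and -1.69 for cyp26c1.S (adjusted p = 0.020), each below 0 in 5 of 6 clutches, and neither passed in the exact test (p = 0.0625 for both). These calls against cyp26a1.S were also lost without any one of clutches I, J, K and L for cyp26c1.L (-1.06 to -1.39) and without any one of H, J and L for cyp26c1.S (-1.42 to -1.57). Against cyp26a1.L it was -0.90 (adjusted p = 0.20) and -1.25 (adjusted p = 0.11), and without clutch G, in which cyp26a1.L was 2.20 lower with RA at 0 h, it was -1.68 (adjusted p = 0.012) and -2.11 (adjusted p = 0.0014). In all, 22.7% of the other genes responded more than cyp26c1.L at 0 h and 22.7% more than cyp26c1.S, and in both cases these were dhrs3.L, cyp26a1.S and 3 hox genes, hoxd3.L with its missing values among them. Both counts, 5 genes each, fell to 3 when 1 clutch was left out, K or L for cyp26c1.L and H for cyp26c1.S. In the other direction, the response of cyp26c1.L at 0 h exceeded that of 9.09% of the other genes. These were rdh10.L (1.35, adjusted p = 0.027) and rdh10.S (1.51, adjusted p = 0.024), named after their values were seen, whose product makes retinaldehyde from retinol. Both calls were lost without any one of clutches G, I and K (1.08 to 1.49). A small response at 0 h was not particular to cyp26c1. The response of cyp26c1.L at 0 h was above those of hoxb1.S and hoxb4.S by 0.145 and 0.86, and neither gap passed (adjusted p = 0.80 and 0.18).

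From 0 to 1.5 h the RA response shifted towards cyp26c1 relative to dhrs3.L by 1.97 for cyp26c1.L (adjusted p = 0.031) and 1.98 for cyp26c1.S (adjusted p = 0.030), in 6 of 6 clutches each. For this shift, fits with 1 clutch left out and the share of other genes called are not given here. From 0 to 4.5 h the gap to dhrs3.L changed by 3.06 for cyp26c1.L (adjusted p = 1.6e-04), above 0 in 6 of 6 clutches. For cyp26c1.S it changed by 2.83 (adjusted p = 6.3e-04), above 0 in 5 of 6 (exact p = 0.0625). The excess over dhrs3.L at 4.5 h itself passed for cyp26c1.L and not for cyp26c1.S. The call for cyp26c1.L was lost without any one of clutches G, I, J and K. The change against cyp26a1.S was 2.17 for cyp26c1.L (adjusted p = 0.014) and 1.94 for cyp26c1.S (adjusted p = 0.088). Against cyp26a1.L it was 1.88 (adjusted p = 0.065) and 1.65 (adjusted p = 0.16). Without clutch G the change of cyp26c1.S was 3.25 against cyp26a1.S and 3.11 against cyp26a1.L (adjusted p = 8.9e-04 for both), and that of cyp26c1.L against cyp26a1.L was 2.52 (adjusted p = 0.0079). Of the 22 other genes, 22.7% gave a called change against cyp26c1.L and 18.2% against cyp26c1.S, hoxd3.L among both, and the count of 4 for cyp26c1.S was 2 without any one of clutches H, K and L. The change against cyp26a1.S did not pass for cyp26c1.L in the exact test (p = 0.0625) or without any one of clutches I, J and L (1.83 to 2.09).

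At 1.5 h the RA response of cyp26c1.L exceeded that of 68.2% of the other target genes and the response of cyp26c1.S that of 59.1%. At 3 h these shares were 63.6% and 50%, and at 4.5 h 59.1% and 0%. The later shares were unstable: the 11 genes of cyp26c1.S at 3 h went to 0 without any one of clutches G, I, K and L, and the 13 genes of cyp26c1.L at 4.5 h to 0 without any one of G, I, J and K. The cyp26c1.S count of 0 at 4.5 h stood beside 0 genes at an unadjusted limma p under 0.05 and 2 of 21 in the exact test. At 1.5 h no difference between either homoeolog and cyp26a1.L, cyp26a1.S or dhrs3.L passed (-0.54 to 0.15, adjusted p from 0.43 to 0.91, 95% intervals from -1.67 to 1.16). At 3 h no difference between cyp26c1.L and cyp26a1.L, cyp26a1.S or dhrs3.L passed (0.89, 0.92 and 0.71, adjusted p = 0.13, 0.096 and 0.15). At 4.5 h cyp26c1.L exceeded dhrs3.L by 1.15 (adjusted p = 0.044, 6 of 6 clutches). As dhrs3.L is among the 13 genes above, this call was lost without any one of clutches G, I, J and K. It was also lost without the clutch block and on the 12 samples alone. The differences of cyp26c1.L from cyp26a1.L and cyp26a1.S at 4.5 h, 0.99 and 0.845, did not pass (adjusted p = 0.11 and 0.13).

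In the rest of the panel, 0 of 5 genes of RA synthesis and 0 of 4 genes of retinoid binding and transport were called with RA at any of the 4 times. Of the 6 hox genes grouped as RA targets, 2, 4, 1 and 0 were called at these times, all higher. Of the 7 genes of retinaldehyde reduction and RA degradation, 3, 5, 3 and 0 were called higher, the cyp26c1 homoeologs included, with median differences of 0.77, 2.18, 0.75 and 0.51, against medians over all 23 genes of 0.39, 0.46, 0.16 and 0.39.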

How the data were processed

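The authors reverse transcribed RNA of pooled embryos, preamplified the cDNA and measured 24 genes on BioMark arrays with EvaGreen. By the paper's methods, preamplification was run with primers for L copies, for S copies and for all genes. A gene's Ct was the median over these runs. They deposited Ct values and log2 values, the latter being the gene's Ct subtracted from that of gapdh and then centred on the gene's median over 72 samples. All 1637 deposited log2 values of target genes were rebuilt from Ct within 0.001. The software of the Ct calls was Fluidigm's, and Ct of different primer pairs are not comparable as levels.

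Groups and clutches were read from the sample titles. The log2 values were fitted with limma 3.58.1 in R 4.3.3 on 12 group means and a clutch block, with Benjamini-Hochberg adjustment at 0.05. The shared clutch pairs the samples: deviations from group means correlated at 0.36 within clutches and -0.08 between them. Exact two-sided sign-flip tests over 6 clutches have 64 assignments, and their p-values are not adjusted over genes. The fit was tested on simulated data. The genes named were both cyp26c1 homoeologs, cyp26a1.L, cyp26a1.S and dhrs3.L as comparators, and the 3 genes most alike by correlation. These members and the gene lists were chosen with earlier results of these data known. hoxd3.L, with all 19 missing values, is in the fit on its measured samples. Primer sequences are not printed, and gene neighbours come from RefSeq's Xenopus laevis v10.1 table without coordinates, since the build behind the gene IDs of the PCR files is not given in the sources used here.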

Additional observations from a re-analysis of the deposited data

Results flagged for a closer look

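Of 60 groups of 6 values looked at (levels, L minus S, and differences from the control), 8 held a value that stood apart from the other 5. Chance alone picks about 1 in 20 groups that are independent. The 60 groups share samples, so the 8 cannot be judged against that rate. Most of the 8 values involve the clutch G control at 4.5 h. The RA difference of cyp26c1.L in clutch G was 3.59 (the others 0.59 to 1.66), and its DEAB difference was 2.01 (-0.42 to 0.00). The DEAB difference of cyp26c1.S in clutch G was -2.17 (-0.46 to 0.37). In the same control sample L minus S was -3.00 (the others -0.22 to 0.69), and the DEAB difference of L minus S in that clutch was 4.18 (-0.79 to 0.44). Among the 72 deviations from the fit, that sample was the second lowest for cyp26c1.L (-1.34) and the third highest for cyp26c1.S (1.42), with -0.44 as the median of the other target genes with full data. The cause was not tested. The remaining values were cyp26c1.S with RA at 1.5 h in clutch H, at 1.56 (the others -0.62 to 0.08), cyp26c1.S with DEAB at 0 h in clutch K, at -0.13 (-4.26 to -3.03), and the RA difference of L minus S at 0 h in clutch H, at 1.72 (-0.05 to 0.21).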

How the results depend on the processing

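The calls at 1.5 h after RA, the control rise from 0 to 4.5 h and the absence of a called DEAB difference in the 2 homoeologs held under every alternative run. The RA difference of cyp26c1.L at 0 h (0.77) passed on the 12 samples alone and in the exact test, both relative to gapdh. Without a reference it was 0.96, above 0 in 6 of 6 clutches (exact p = 0.031). Against the panel mean it is lowered by as much as that of cyp26c1.S, and its value there is not given. At 3 h, cyp26c1.L (1.64) lost its call without the replicate block (adjusted p = 0.083) and without a reference (1.68), and ranged from 1.53 to 1.74 over left-out clutches. At 3 h cyp26c1.S (1.30) lost its call without the replicate block (adjusted p = 0.098), with adjustment over the 8 treatment comparisons together (adjusted p = 0.062), against the panel mean (0.89) and without a reference (1.34), and ranged from 1.21 to 1.44. At 4.5 h cyp26c1.L (1.50) passed with a block for each clutch and time (adjusted p = 0.0031), on the 12 samples (adjusted p = 0.013), with the 4 weakest genes left out (adjusted p = 0.046), over the 8 comparisons (adjusted p = 0.029) and in the exact test, and ranged from 1.08 to 1.68. The exact test did not pass for this gene and time without a reference (1.36, 5 of 6 clutches, p = 0.094). Without the replicate block, the counts of other genes that cyp26c1 exceeded went from 13 to 0 for cyp26c1.L at 4.5 h and from 11 to 0 for cyp26c1.S at 3 h. They also went to 0 at 4.5 h on the 12 samples alone or without any of clutches G, I, J and K, and at 3 h without any of clutches G, I, K and L. Counts of genes that exceeded cyp26c1 at 0 h went from 5 to 3 for cyp26c1.L without the block, K or L and for cyp26c1.S without H, and counts of called changes to 4.5 h from 5 to 3 and from 4 to 2 without the block. Directions that turned were all of values that did not pass. Against the panel mean, which includes genes called with RA, these were cyp26c1.S with RA at 0 h (-0.21) and its RA minus DEAB difference at 0 h (-0.20). They were also the first control step of cyp26c1.S (-0.14) and cyp26c1.L with DEAB at 3 h (0.0436). Without a reference they were the DEAB difference of cyp26c1.L at 1.5 h (0.03) and of cyp26c1.S at 0 h (0.0483), and RA at 0 h minus control at 1.5 h (0.005 for cyp26c1.L, 0.12 for cyp26c1.S). With 1 clutch left out the DEAB difference of cyp26c1.L ranged from -0.35 to 0.11 at 1.5 h, from -0.36 to 0.12 at 3 h and from -0.18 to 0.308 at 4.5 h, and that of cyp26c1.S at 0 h from -0.70 to 0.33. In the same way RA minus DEAB of cyp26c1.S at 0 h ranged from -0.004 (without I) to 0.956. For L minus S the RA difference at 4.5 h ranged from -0.16 to 1.12, the DEAB difference from -0.054 to 0.94 and the change of the RA difference from 0 to 4.5 h from -0.59 to 0.724, each lowest without G. The causes were not tested. With 6 clutches, limma intervals of about 1 log2 unit to either side of an estimate set the limit of what could be seen.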
